A study of Homo sapiens with 30 samples.

Results

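The metallothionein cluster on the long arm of human chromosome 16 was followed by nascent transcription in A549 cells, a lung adenocarcinoma line. The 9 members were taken by name from the count table: MT2A, MT1E, MT1F, MT1G, MT1M, MT1X, MT1A, the pseudogene MT1L and the long intergenic noncoding RNA AC026461.3 (ENSG00000260823.1), out of 58780 genes in the table. They were chosen by the log2 fold changes measured at 15 min of dexamethasone against untreated cells, so the values at 15 min against untreated cells are given below as a description, with no test. The assay was PRO-seq (precision run-on sequencing): engaged polymerases in permeabilized cells extend their RNA with labelled nucleotides, and the labelled RNA is captured and sequenced. The series holds 15 groups of 2 libraries.

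All groups, the untreated one included, were kept in 0.01% DMSO. The synthetic glucocorticoid dexamethasone (Dex) was used at 100 nM. GSK591 blocks PRMT5, which places symmetric methyl marks on arginines, and was used at 1 uM. MS023 blocks the Type I arginine methyltransferases, which place asymmetric marks, and was also used at 1 uM. The untreated group is labelled as a 15 min vehicle control, and it served as the reference for every time point, so the groups of 3 h and of days have no time-matched vehicle control. Dex alone was given for 15 min or 3 h. Dex was given together with GSK591 or with MS023 for 3 h. Each inhibitor alone was given for 2, 4 or 7 days, and after 7 days of either inhibitor Dex was added for 15 min or 3 h. A549 is 1 cell line, and the labels do not say whether the 2 libraries of a group came from separate cultures, so p-values measure the spread between these libraries, which may be technical.

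Metallothioneins are small cysteine-rich proteins that bind zinc, copper and cadmium through their thiolate groups, buffer free zinc and blunt metal and oxidative stress. Their genes are switched on by zinc through the transcription factor MTF1, which binds short metal response elements repeated in their promoters. MT2A, the main form in many epithelial cells, is also a classical gene induced by glucocorticoids through the glucocorticoid receptor. AC026461.3 is an annotated lincRNA that has no function assigned here.

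All 9 members lie within 75998 bp of chromosome 16 (GRCh38, GENCODE 29 annotation). MT2A spans chr16:56608199-56609497 on the plus strand, and AC026461.3 spans chr16:56609501-56611375 on the minus strand, so that 3 bases separate their annotated ends. AC026461.3 has 2 exons of 384 and 60 bases, the longer one at chr16:56609501-56609884, directly past the 3' end of MT2A. MT1L (chr16:56617476-56618818), MT1E (chr16:56625475-56627112), MT1M (chr16:56632233-56633986), MT1A (chr16:56638666-56640087), MT1F (chr16:56657694-56660698) and MT1X (chr16:56682424-56684196) follow on the plus strand. MT1G (chr16:56666731-56668065) lies on the minus strand between MT1F and MT1X.

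**Figure D1:**
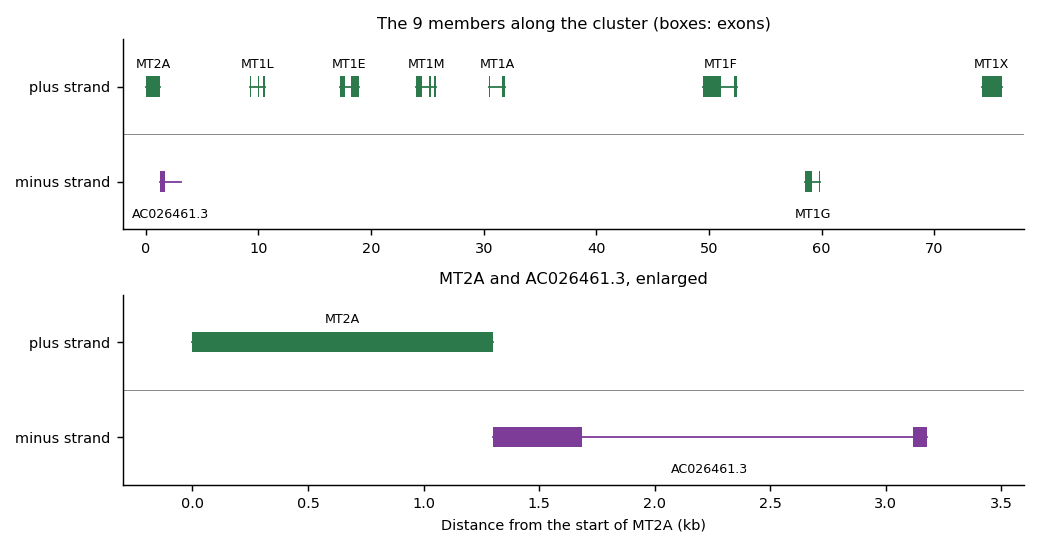
Position of the 9 members in kb from the start of MT2A, plus strand above and minus strand below, with exons as boxes. The lower panel enlarges MT2A and AC026461.3, whose annotated 3' ends face each other, separated by 3 bases.

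The counts carry no strand. Of 196 genes whose exons lie wholly inside exons of an expressed gene on the other strand, 196 had 0 counts in every library. Genes nested in introns of an expressed host had a median of 10.4 counts per kb in 61 same-strand cases and 12 counts per kb in 46 opposite-strand cases. The counts assigned to AC026461.3 therefore hold reads of either strand within its exons. Transcription of the lincRNA and transcription running on past the 3' end of MT2A cannot be told apart in these counts, and every value of AC026461.3 below is a value of that window.

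The promoters are shown because they hold the metal response elements bound by MTF1. RefSeq promoter sequence (GRCh38.p14) was held here for 2 of the 9 members. Each is given as the 250 bases before the annotated RefSeq start, 5' to 3' on the plus strand, with metal response element cores (TGCACNC or TGCGCNC on either strand) and the TATA box (TATAAA) in capitals. They lie at chr16:56608334-56608583 for MT2A and at chr16:56682220-56682469 for MT1X. The GENCODE annotation has a longer MT2A transcript that starts before this window.
MT2A promoter: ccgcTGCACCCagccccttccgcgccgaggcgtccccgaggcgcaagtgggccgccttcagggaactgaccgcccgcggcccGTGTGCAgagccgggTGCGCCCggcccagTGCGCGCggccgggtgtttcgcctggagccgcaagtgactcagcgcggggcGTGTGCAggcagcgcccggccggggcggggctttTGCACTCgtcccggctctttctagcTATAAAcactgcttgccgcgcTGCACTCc
MT1X promoter: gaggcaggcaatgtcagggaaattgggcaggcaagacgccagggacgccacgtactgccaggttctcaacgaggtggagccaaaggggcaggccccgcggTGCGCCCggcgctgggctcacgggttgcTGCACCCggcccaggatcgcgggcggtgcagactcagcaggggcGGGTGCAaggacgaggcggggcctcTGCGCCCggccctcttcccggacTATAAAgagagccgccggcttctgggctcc

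The MT2A window held 7 metal response element cores and the MT1X window 4, on both strands, the farthest of the MT2A cores at position -246, where -1 is the last base before the start. Both windows had a TATA box, at -29 to -24 in MT2A and -30 to -25 in MT1X. At least 1 such core occurred in 24.7% of 27305 promoter windows of the same length, and 3 or more in 1.56%, while TATAAA occurred in 11.1% on either strand. The AP-1 letters TGACTCA occurred once in the MT2A window, at -104 to -98, and in 4.16% of windows. The hexamer TGTTCT of the glucocorticoid receptor's binding site (12.4% of windows) and the paired arms GNACA and TGTNC separated by 3 bases (0.33% of windows) were in neither window. Sequence more than 250 bases before the start was not searched, so sites farther upstream are not covered.

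Coding sequences are shown because their likeness bears on how well reads can be assigned to 1 member. They are only a part of the exons, 186 of 1299 bases for MT2A. From the GENCODE 29 transcripts, 3 coding members with tested values are given 5' to 3', with the bases of the other members that differ from MT2A in capitals.
MT2A coding: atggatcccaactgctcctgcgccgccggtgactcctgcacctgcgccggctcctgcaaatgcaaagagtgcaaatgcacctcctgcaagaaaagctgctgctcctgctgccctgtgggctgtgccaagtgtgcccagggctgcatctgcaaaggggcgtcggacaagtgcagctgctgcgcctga
MT1X coding: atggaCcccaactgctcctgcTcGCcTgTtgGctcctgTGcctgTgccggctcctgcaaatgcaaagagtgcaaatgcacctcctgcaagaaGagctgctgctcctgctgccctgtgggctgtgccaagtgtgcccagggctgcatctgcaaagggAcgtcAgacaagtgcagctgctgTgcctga
MT1F coding: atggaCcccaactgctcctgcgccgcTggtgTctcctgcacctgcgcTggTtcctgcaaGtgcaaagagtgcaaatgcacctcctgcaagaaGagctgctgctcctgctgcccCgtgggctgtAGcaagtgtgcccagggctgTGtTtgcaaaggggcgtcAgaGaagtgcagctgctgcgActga

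Each of these coding sequences is 186 bases long, and MT1X differed from MT2A at 14 bases (92.5% identity) and MT1F at 16 (91.4%). Identity to MT2A was 95.2% for MT1G, 92.5% for MT1E and 89.8% for MT1M. Of all stretches of 31 bases in the annotated transcripts, 7.25% of those of MT2A, 3.25% of MT1F, 19.8% of MT1X and 18.9% of MT1A also occurred in transcripts of another gene, against 0% for AC026461.3. The shares were 15.6% for MT1E, 16.3% for MT1L, 23.3% for MT1G and 24.1% for MT1M. In addition 18.1% of the exonic length of MT1X (321 bp) overlaps AC026461.1 on the same strand. Reads in shared stretches may have been dropped or split between copies, so levels of the copies with large shared parts are uncertain.

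Depth was 8441211 to 13069598 counts per library, of which 58.7% to 78.7% were mitochondrial, and 1 count was worth 0.0708 to 0.137 CPM (read counts scaled to library size, itself scaled by the TMM method). The mitochondrial share was lowest in the libraries of 7 days of MS023, and scaling by total counts alone would raise the median of all genes there by 1.02 on the log2 scale. The 11 markers of A549 (keratins, aldo-keto reductases, aldehyde dehydrogenases and others) had counts in 30 of 30 libraries and summed to 962 to 1920 CPM. Markers of leukocytes, fibroblasts, endothelium, erythroid cells and hepatocytes summed to 7.07 to 20.9 CPM, highest after 7 days of MS023, and CDKN2A, which is deleted in A549, had 0 to 3 counts. Of 20 glucocorticoid-induced genes, 17 were higher after 3 h of Dex than in untreated cells, where 6.11% of all genes were. The list was chosen with earlier results of these data known, so it is not an independent check of the Dex labels.

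MT2A and MT1X were the most transcribed coding members, and MT1E, MT1G, MT1M and MT1L were close to silent. Over the 30 libraries MT2A had 63 to 625 counts, MT1X 90 to 559, AC026461.3 6 to 400, MT1F 7 to 70 and MT1A 0 to 13. These 5 members passed the filter on low counts (22919 genes passed) and were tested. MT1A passed it on treated libraries, since it had 0 counts in both untreated ones. The other 4 did not pass: MT1E had 0 to 9 counts per library and 77 in all, MT1G 14 in all, MT1M 7 and MT1L 4. None of 12 further metallothionein genes and copies (among them MT3, MT1H and MT1DP) passed the filter, and their highest count in any library was 12.

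Per kb of annotated exon, levels in untreated cells were 9.24 ± 1.22 CPM per kb (SD, n = 2) for MT2A, 7.64 ± 0.52 for MT1X and 0.553 ± 0.199 for MT1F. On the same scale the level of AC026461.3 was 7.26 and 10.9 CPM per kb in the 2 untreated libraries, where MT2A was at 10.1 and 8.38 and MT1X at 7.28 and 8.01. In the 16 libraries with Dex it was 26.9 to 66.5 CPM per kb, where MT2A was at 17.2 to 35.5 and MT1X at 11.4 to 23.1. The lincRNA window was thus the most densely covered member under Dex.

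Across the whole series, libraries with and without Dex separated in MT2A, MT1X and AC026461.3. In bulk libraries such as these, more transcription per cell and more transcribing cells cannot be told apart. In the 14 libraries without Dex, MT2A ran from 8.44 to 13.1 CPM (median 10.6), and in the 16 with Dex from 22.3 to 46.1 (median 35.1). AC026461.3 ran from 0.804 to 4.84 CPM (median 3.45) without Dex and from 11.9 to 29.5 (median 20.4) with it. MT1X ran from 10.6 to 16 CPM (median 13.1) without and from 20.2 to 40.9 (median 31.9) with Dex. For these 3 members no library with Dex overlapped one without, a description that includes the 15 min libraries the choice of members used. MT1F (0.779 to 4.31 against 1.8 to 5.28 CPM) and MT1A (0 to 0.88 against 0.0978 to 1.04 CPM) overlapped.

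**Figure D2:**
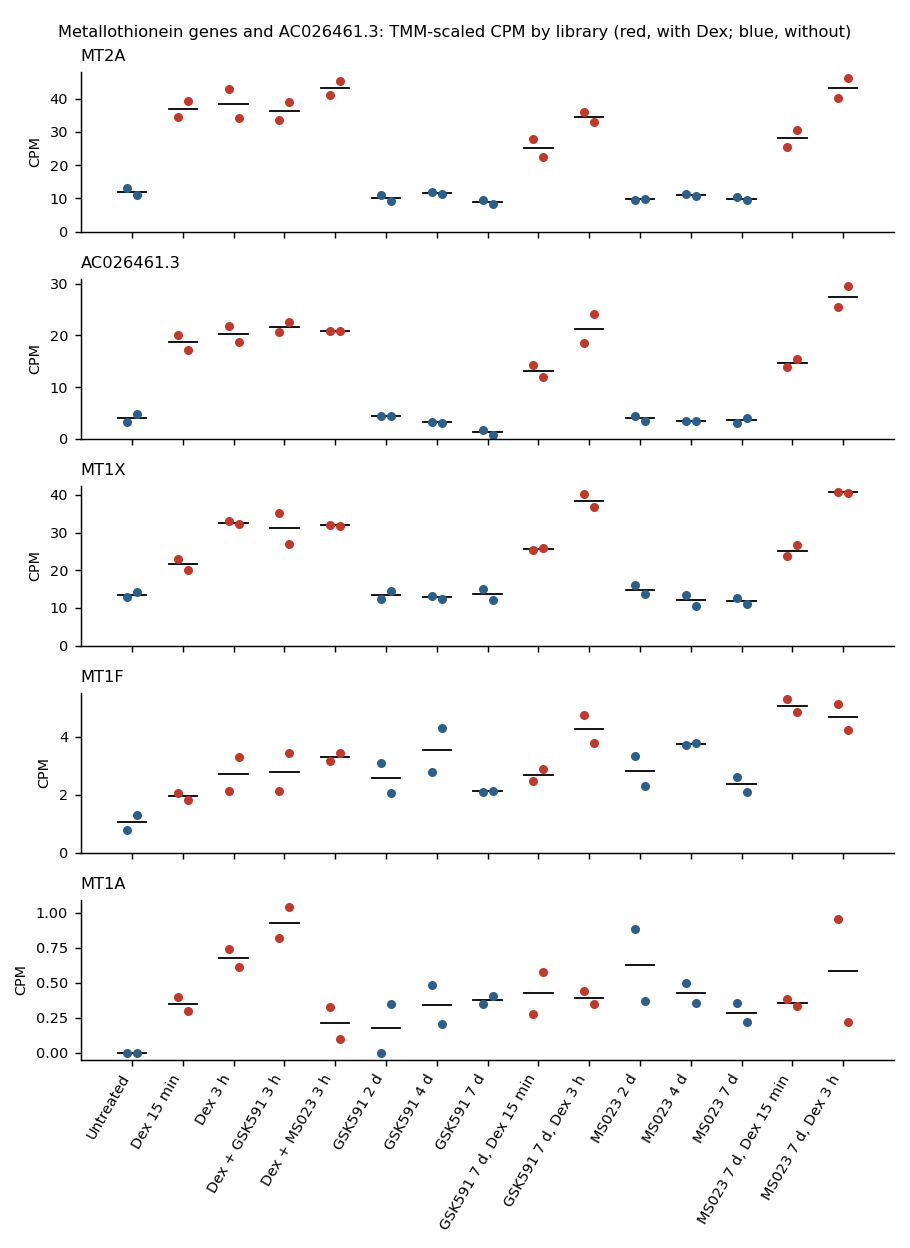
TMM-scaled CPM of the 5 tested members in each library, replicate 1 on the left and replicate 2 on the right, with the group mean as a line; red points had Dex. MT2A, AC026461.3 and MT1X stand apart between red and blue, from 8.44 to 13.1 against 22.3 to 46.1 CPM for MT2A, and MT1F and MT1A overlap.

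Ordered by mean level, MT2A was lowest after 7 days of GSK591 (8.93 ± 0.689 CPM, SD, n = 2), followed by MS023 at 2 days (9.73 ± 0.208) and 7 days (9.95 ± 0.657), GSK591 at 2 days (10.1 ± 1.29), MS023 at 4 days (11.1 ± 0.386), GSK591 at 4 days (11.5 ± 0.41) and untreated cells (12 ± 1.59). Among the groups with Dex, the order was 15 min after GSK591 (25.1 ± 3.92), 15 min after MS023 (28 ± 3.52), 3 h after GSK591 (34.4 ± 2.08), Dex with GSK591 (36.3 ± 3.83), Dex 15 min (36.9 ± 3.49), Dex 3 h (38.5 ± 6.11), Dex with MS023 (43.1 ± 2.96) and 3 h after MS023 (43.2 ± 4.19). The 2 libraries of a group overlapped those of the next group in 11 of 14 steps of this order. The steps without overlap were those from GSK591 at 7 days to MS023 at 2 days, from untreated to the groups with Dex, and from the 15 min groups after an inhibitor to the rest. The step from GSK591 at 7 days was narrow, from 9.42 to 9.58 CPM. Replicate 2 of GSK591 at 2 days, at 9.19 CPM, lay under that 9.42. For AC026461.3 the lowest group was also GSK591 at 7 days (1.22 CPM) and the highest 3 h of Dex after MS023 (27.5 CPM), with 9 of 14 steps overlapping.

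At 15 min of Dex, the contrast used to select the members, MT2A had 349 and 394 counts against 118 and 108 in untreated cells, a log2 fold change of 1.62. AC026461.3 had 204 and 172 counts against 29 and 48, a log2 fold change of 2.2. MT1X had 232 and 202 counts against 116 and 141 (log2 fold change 0.67), and MT1F 21 and 18 against 7 and 13 (0.87). MT1A had 4 and 3 counts against 0 and 0. All of these are descriptions. Between 15 min and 3 h the log2 fold change was 0.06 for MT2A, 0.12 for AC026461.3, 0.6 for MT1X and 0.47 for MT1F, again without a test. MT1X was at 22.9 and 20.2 CPM at 15 min and 33.1 and 32.2 at 3 h, whereas the 15 min and 3 h libraries of MT2A (34.5 and 39.4 against 42.8 and 34.2 CPM) overlapped.

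After 3 h of Dex, MT2A, AC026461.3, MT1X and MT1F were called higher than in untreated cells, where 6.11% of the 22919 genes tested were called higher. The untreated libraries here are those of the contrast that selected the members, so neither the 3 h values nor any later comparison with untreated cells is independent of it. MT1A had 0 counts in both untreated libraries and passed the filter through treated ones only, so its comparisons with untreated cells are given as counts, without a p. MT2A had 403 and 280 counts (42.8 and 34.2 CPM) against 118 and 108 (13.1 and 10.9 CPM), a 3.23-fold rise (log2 fold change 1.69, SE 0.145, adjusted p = 6.22e-13). Here and below, unless another tool is named, adjusted p comes from edgeR's quasi-likelihood test, adjusted by the Benjamini-Hochberg method. AC026461.3 had 206 and 153 counts (21.9 and 18.7 CPM) against 29 and 48 (3.23 and 4.84 CPM), a 4.99-fold rise (log2 2.32, SE 0.197, adjusted p = 4.38e-13). MT1X had 311 and 264 counts against 116 and 141, a 2.41-fold rise (log2 1.27, SE 0.142, adjusted p = 1.79e-09). The lower library with Dex lay above the higher untreated one in each of these members.

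The rise of MT1F was less certain. MT1F had 20 and 27 counts against 7 and 13 (log2 1.34, SE 0.389, adjusted p = 0.0171 by the edgeR test). That call was lost with DESeq2 (adjusted p = 0.0695), without untreated replicate 1 (log2 1.03, adjusted p = 0.226) and without Dex 3 h replicate 2 (log2 1, adjusted p = 0.267). MT1A had 7 and 5 counts against 0 and 0, which is 4.3-fold over a floor of 3 counts in the untreated group. That ratio leaves out the counting error of the 7 and 5 counts. The untested members stayed near 0 at 3 h, with 1 and 1 counts for MT1E, 1 and 0 for MT1M, and none for MT1G and MT1L.

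Genes around and upstream of the cluster give the setting for this rise. None of the 9 tested neighbours within 250 kb of the cluster was called at 3 h in the edgeR test (median log2 fold change 0.13, against -0.01 over all genes). They include BBS2, NUP93 and HERPUD1. Of all genes 10.5% were called in either direction, 6.11% higher and 4.41% lower, and 0 of 9 is near that share. Of 22 tested genes of zinc sensing and transport, 3 were higher and 0 lower, also near the 10.5% of all genes (median log2 fold change -0.03). These were SLC39A14, a zinc importer (log2 1.21, adjusted p = 1.78e-08, 45.5 against 19.6 CPM), MTF1, the zinc-sensing factor that binds metal response elements (log2 0.75, adjusted p = 0.00722, 10 against 5.99 CPM), and SLC30A2, a zinc transporter of the exporter family (log2 1.52, adjusted p = 0.0186, 2.89 against 1 CPM). Of 12 stress genes, 3 were higher and 5 lower (median log2 fold change -0.27). HSPB1, a small heat shock protein (log2 1.19, adjusted p = 1.89e-11), DNAJB1 (0.86, adjusted p = 1.18e-07) and HSPA1A (0.46, adjusted p = 0.00481), both chaperones, rose. HMOX1, heme oxygenase (log2 -1.05, adjusted p = 5.33e-06), GCLC, a subunit of the glutathione-synthesis enzyme (-0.71, adjusted p = 0.00125), and TXNRD1, thioredoxin reductase (-1.29, adjusted p = 0.0047), fell.

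NR3C1, which encodes the glucocorticoid receptor, was at 38.3 CPM after 3 h of Dex against 48.7 in untreated cells (log2 -0.35, adjusted p = 0.0365 by the edgeR test). PRMT5 and PRMT1, the genes of the enzymes the inhibitors act on, were at 4.98 against 8.33 CPM (log2 -0.74, adjusted p = 0.0145) and 32.7 against 56 CPM (log2 -0.78, adjusted p = 6.26e-07). Both inhibitors act on enzyme activity, so these levels do not check the inhibitor labels.

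With an inhibitor given together with Dex for 3 h, no tested member was called against Dex alone in the edgeR test. With GSK591, MT2A had 329 and 375 counts (33.6 and 39 CPM) against 42.8 and 34.2 CPM with Dex alone (log2 -0.09, 95% interval -0.35 to 0.17, adjusted p = 0.984), and AC026461.3 had 202 and 217 counts (log2 0.09, interval -0.23 to 0.4, adjusted p = 0.989). With MS023, MT2A had 375 and 462 counts (log2 0.16, interval -0.1 to 0.42, adjusted p = 0.623) and AC026461.3 191 and 214 (log2 0.04, interval -0.28 to 0.36, adjusted p = 0.949). In both comparisons 0 of 5 members passed, 0 had an unadjusted p under 0.05, and DESeq2 also called 0. Of all genes 0% were called with GSK591 (1306 had an unadjusted p under 0.05) and 0.196% with MS023. MT1X stayed at 35.2 and 27.1 CPM with GSK591 and 32 and 31.8 with MS023, and the libraries overlapped those of Dex alone in the first case only. MT1A, at 7 and 5 counts with Dex alone, had 8 and 10 with GSK591 and 3 and 1 with MS023 (log2 -1.66, adjusted p = 0.408), counts too low to show a difference of this size.

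Without Dex, neither inhibitor gave a called change of MT2A or MT1X at any time point. All of these comparisons share the 2 untreated libraries. After 2 days of GSK591, MT2A had 82 and 80 counts (log2 -0.25, SE 0.17, adjusted p = 0.444 by the edgeR test), and AC026461.3 had 32 and 38 (log2 0.09, SE 0.25, adjusted p = 0.883). After 4 days MT2A had 123 and 112 counts (log2 -0.05, SE 0.161, adjusted p = 0.861) and AC026461.3 34 and 31 (log2 -0.35, SE 0.253, adjusted p = 0.385). MT1F was the 1 member called at each of these times, and its untreated libraries, used in the selection of the members, were the lowest of all 30 in CPM. The call stands among 5.64% of all genes at 2 days and 17.2% at 4 days. MT1F had 23 and 18 counts at 2 days (log2 1.26, SE 0.399, adjusted p = 0.0478) and 29 and 43 at 4 days (log2 1.73, SE 0.365, adjusted p = 0.000436), against 7 and 13 in untreated cells.

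The call of MT1F at 2 days was lost without any 1 of the 4 libraries, with log2 values from 0.95 to 1.7, while the call at 4 days was kept in each such fit, from 1.39 to 2.17. MT1A had 0 and 3 counts at 2 days and 5 and 2 at 4 days, against 0 and 0.

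After 7 days of GSK591, AC026461.3 was the 1 called member of the 5, lower, among 13.2% of all genes called in either direction. It had 14 and 6 counts (1.63 and 0.804 CPM) against 29 and 48 (3.23 and 4.84 CPM) in untreated cells, a log2 fold change of -1.7 (SE 0.326, adjusted p = 0.000169 by the edgeR test), which is 3.25-fold lower. The exact 95% Poisson interval was 0.891 to 2.73 CPM and 0.295 to 1.75 CPM for the 2 GSK591 libraries, and 2.16 to 4.64 and 3.57 to 6.42 CPM for the untreated ones; these intervals cover counting error only. The fall was called in every fit that left out 1 library, with log2 values from -2.32 to -1.31, and with DESeq2 (-1.68, adjusted p = 0.0011). The library with 6 counts, replicate 2, had the largest mitochondrial share of all libraries (78.7%) and the lowest nuclear count (1940836). Without it the log2 fold change was -1.31 (adjusted p = 0.0213), and the part of its low depth in the result was not tested beyond that.

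MT2A, which lies directly next to AC026461.3, did not pass the test at the same time. It had 81 and 63 counts (9.42 and 8.44 CPM) against 13.1 and 10.9 CPM, a log2 fold change of -0.42 (SE 0.173, 95% interval -0.77 to -0.07, adjusted p = 0.103). MT1X had 130 and 90 counts (15.1 and 12.1 CPM, log2 0.01, adjusted p = 0.982), MT1F 18 and 16 (log2 1, adjusted p = 0.104) and MT1A 3 and 3. Of the tested neighbours, NUP93, a nuclear pore gene, was lower (log2 -0.65, adjusted p = 0.00398) and the other 8 were not called. This is near the 13.2% of all genes called in either direction. Among the zinc genes 0 of 22 and among the stress genes 0 of 12 were called in the edgeR test. Of the 20 glucocorticoid-induced genes 6 were higher and 3 lower at 7 days, the lower ones being PER1 (log2 -0.89, adjusted p = 0.000587), ANGPTL4 (-0.62, adjusted p = 0.000839) and ERRFI1 (-0.54, adjusted p = 0.00283). GADD45A (0.81, adjusted p = 1.02e-05), CEBPD (0.99, adjusted p = 0.000159) and SGK1 (0.49, adjusted p = 0.00545) were among the higher ones.

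MS023 alone gave no called change of MT2A or AC026461.3. MT2A had 98 and 107 counts at 2 days (log2 -0.3, SE 0.164, adjusted p = 0.262 by the edgeR test), 160 and 152 at 4 days (-0.11, SE 0.156, adjusted p = 0.701) and 147 and 131 at 7 days (-0.27, SE 0.158, adjusted p = 0.281). AC026461.3 had 44 and 38 counts (log2 -0.06, SE 0.243, adjusted p = 0.917), 48 and 49 (-0.23, SE 0.237, adjusted p = 0.567) and 44 and 56 (-0.18, SE 0.235, adjusted p = 0.67). These directions rest on the TMM scaling. With scaling by total counts alone MT2A was at 0.38, 0.64 and 0.76 and AC026461.3 at 0.61, 0.5 and 0.83 on the log2 scale, where the median of all genes moved to 0.68, 0.74 and 1.02. Relative to that median they were again lower.

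Under MS023 alone MT1F was called at 2 days (with 10.4% of all genes), 4 days (14.2%) and 7 days (13.6%), again against the untreated libraries that the selection of the members used. MT1F had 34 and 25 counts at 2 days (log2 1.4, SE 0.377, adjusted p = 0.0103 by the edgeR test), 52 and 53 at 4 days (1.81, SE 0.35, adjusted p = 0.000177) and 37 and 29 at 7 days (1.15, SE 0.373, adjusted p = 0.0305). Its untreated libraries had 7 and 13 counts. MT1A had 9 and 4 counts at 2 days, 3.89-fold over the untreated floor, 7 and 5 at 4 days, 2.69-fold, and 5 and 3 at 7 days. These ratios leave out the counting error of the treated counts. The MT1F call was kept in each fit without 1 library at 4 days (1.51 to 2.25). It was lost at 2 days without untreated replicate 1 (adjusted p = 0.178) or MS023 replicate 1 (0.173), and at 7 days without any 1 of the 4 libraries (0.0503 to 0.299). Markers of other cell types summed to 18.5 and 20.9 CPM in the libraries of 7 days of MS023 and 7.9 and 12.2 CPM in untreated ones, and 3 of their 6 tested genes were called higher (median log2 fold change 1.05). After 4 days of GSK591 they summed to 11.8 and 14.3 CPM, with 1 of 6 called higher. Of the 11 markers the leukocyte genes PTPRC and CD3E reached at most 5 counts in any library. CD14, also listed as a leukocyte gene, had 6 to 59 counts (median 25), with counts in 30 libraries. The part of these markers in the MT1F values was not tested.

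After 7 days of MS023, 1 of 9 neighbours and 4 of 22 zinc genes were called, shares near the 13.6% of all genes. The neighbour NUDT21, a cleavage factor subunit, was lower (log2 -0.58, adjusted p = 0.0395 by the edgeR test). Of the 22 zinc genes 1 was higher, the exporter SLC30A1 (log2 0.4, adjusted p = 0.0448), itself a known target of MTF1, and 3 members of the importer family were lower: SLC39A10 (-0.51, adjusted p = 0.000893), SLC39A7 (-0.71, adjusted p = 0.0012) and SLC39A13 (-0.5, adjusted p = 0.00475). Of 12 stress genes 3 were higher, GCLC (0.59, adjusted p = 0.00361), DNAJB1 (0.4, adjusted p = 0.0112) and GCLM (0.77, adjusted p = 0.0143), and 0 were lower. NR3C1 was at 67.7 CPM against 48.7 in untreated cells (log2 0.48, adjusted p = 0.00158).

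Set against each other at matched times, the inhibitors differed in AC026461.3 at 7 days. At that time AC026461.3 had 14 and 6 counts under GSK591 and 44 and 56 under MS023 (1.63 and 0.804 against 3.12 and 4.05 CPM), a log2 difference of -1.52 (SE 0.317, adjusted p = 0.000731 by the edgeR test). It was the 1 member called, among 9.38% of all genes. Without GSK591 replicate 2 the difference was -1.13 and missed the threshold (adjusted p = 0.0689). MT2A differed by -0.15 (95% interval -0.49 to 0.19, adjusted p = 0.67), a value that became -1.19 (adjusted p = 3.15e-05) with scaling by total counts alone, under which the median of all genes was at -1.07.

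At 2 and 4 days 0 of 5 members were called between the inhibitors by edgeR or by DESeq2, and 0 had an unadjusted p under 0.05, where 2.69% and 6.03% of all genes were called. MT2A differed by 0.05 at 2 days (SE 0.172, adjusted p = 0.956) and by 0.05 at 4 days (SE 0.155, adjusted p = 0.906). AC026461.3 differed by 0.15 (SE 0.248, adjusted p = 0.873) and -0.11 (SE 0.244, adjusted p = 0.872).

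**Figure D3:**
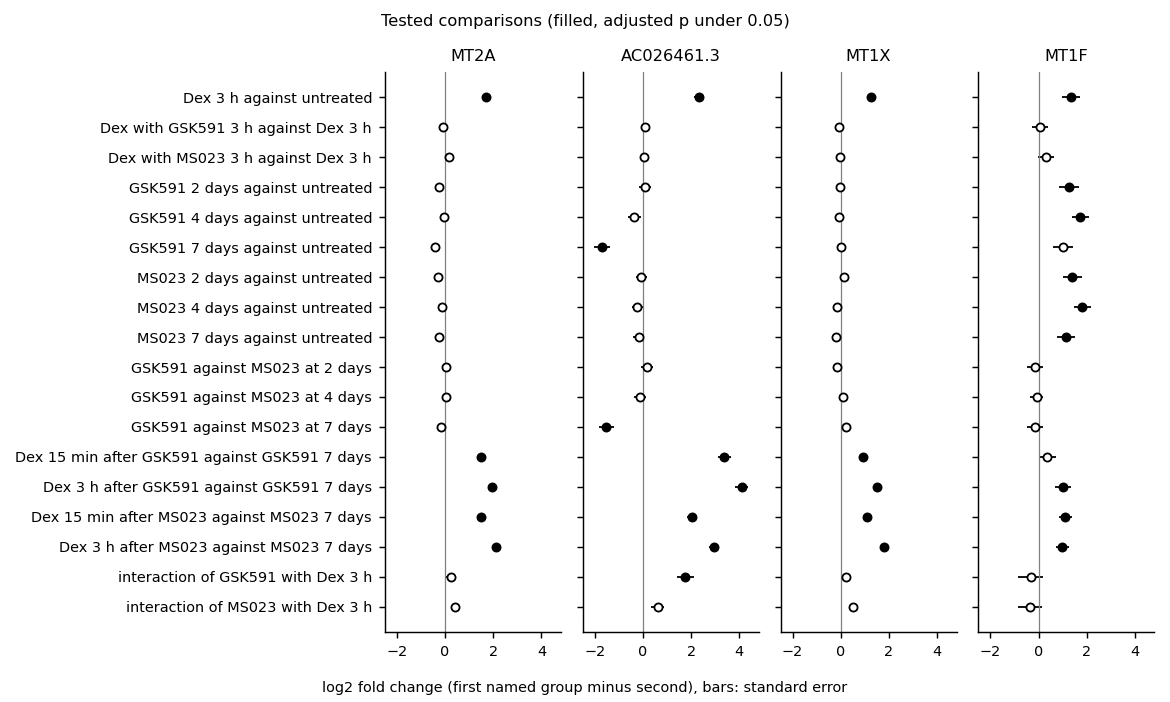
Log2 fold change with its standard error for 4 members in the 18 tested comparisons, filled where the adjusted p was under 0.05. AC026461.3 departs from MT2A and MT1X after 7 days of GSK591, at -1.7, and in the interaction of GSK591 with 3 h of Dex, at 1.76.

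Dex added after 7 days of an inhibitor was compared with the same inhibitor alone, a contrast that shares no library with the one that selected the members. After GSK591, 3 of 5 members were higher at 15 min, where 1.07% of all genes were. MT2A had 204 and 232 counts (27.9 and 22.3 CPM) against 81 and 63 (9.42 and 8.44 CPM), a 2.79-fold rise (log2 1.48, SE 0.161, adjusted p = 4.15e-09 by the edgeR test). AC026461.3 had 104 and 124 counts (14.2 and 11.9 CPM) against 14 and 6 (1.63 and 0.804 CPM), a 10.3-fold rise (log2 3.37, SE 0.271, adjusted p = 2.72e-13). MT1X had 187 and 269 counts against 130 and 90 (log2 0.91, SE 0.148, adjusted p = 5.86e-05). MT1F (18 and 30 against 18 and 16 counts, adjusted p = 0.722) and MT1A (2 and 6 against 3 and 3 counts, adjusted p = 0.944) were not called.

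At 3 h after GSK591, 4 of 5 members were higher, where 5.39% of all genes were. MT2A had 325 and 287 counts (35.8 and 32.9 CPM), 3.84-fold over GSK591 alone (log2 1.94, SE 0.156, adjusted p = 7.36e-14 by the edgeR test). AC026461.3 had 168 and 210 counts (18.5 and 24.1 CPM), 17-fold over GSK591 alone (log2 4.09, SE 0.253, adjusted p = 1.15e-17). MT1X had 365 and 320 counts, a 2.81-fold rise (log2 1.49, SE 0.143, adjusted p = 1.89e-11). The libraries of MT2A and AC026461.3 overlapped those of Dex alone at 3 h (34.2 to 42.8 and 18.7 to 21.9 CPM), whereas those of MT1X (40.3 and 36.7 CPM) lay above them (32.2 to 33.1 CPM). MT1F had 43 and 33 counts (log2 1.01, SE 0.327, adjusted p = 0.0382), a call lost with DESeq2 (0.158) and without any 1 of the 4 libraries (0.0614 to 0.259).

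After MS023, 4 of 5 members were higher at 15 min, where 1.23% of all genes were, and 4 of 5 at 3 h, where 5.72% were. MT2A was at 25.5 and 30.5 CPM at 15 min and 40.2 and 46.1 at 3 h, against 10.4 and 9.48 under MS023 alone. Its rises were 2.81-fold (log2 1.49, SE 0.141, adjusted p = 5.79e-11 by the edgeR test) and 4.35-fold (log2 2.12, SE 0.138, adjusted p = 3.74e-17). AC026461.3 had 181 and 185 counts at 15 min and 347 and 400 at 3 h against 44 and 56, which is 4.08-fold (log2 2.03, SE 0.188, adjusted p = 3.52e-11) and 7.62-fold (log2 2.93, SE 0.18, adjusted p = 3.23e-18) higher. At 3 h after MS023 both genes had their highest group means, which for MT2A overlapped the libraries of Dex with MS023.

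MT1X followed the same course after MS023, with 309 and 319 counts at 15 min and 559 and 550 at 3 h against 178 and 153 (log2 1.08, SE 0.137, adjusted p = 1.72e-07 and log2 1.78, SE 0.133, adjusted p = 4.08e-15, edgeR test). MT1F had 69 and 58 counts at 15 min and 70 and 57 at 3 h against 37 and 29 (log2 1.1, SE 0.274, adjusted p = 0.017 and log2 0.98, SE 0.274, adjusted p = 0.0112). The 15 min call of MT1F was lost without any 1 of the 4 libraries (adjusted p from 0.0776 to 0.286). The 3 h call was lost with DESeq2 (0.0949), without MS023 replicate 2 (0.167) and without the Dex replicate 1 (0.154). MT1A had 5 and 4 counts at 15 min and 13 and 3 at 3 h against 5 and 3 and was not called (adjusted p = 0.959 and 0.475).

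The zinc and stress lists were also read at 3 h after each inhibitor. Of all genes 9.85% were called in either direction after GSK591 and 11.1% after MS023. SLC39A14, MTF1 and SLC30A2 were again the 3 zinc genes called higher, after GSK591 (log2 0.78, 0.94 and 1.34, adjusted p = 0.000118, 0.000235 and 0.0357 by the edgeR test) and after MS023 (1.06, 0.68 and 1.43, adjusted p = 9.59e-08, 0.00339 and 0.0172). After GSK591 the importers SLC39A6 (-1.14, adjusted p = 0.0205) and SLC39A8 (-0.6, adjusted p = 0.0378) were lower. Of 12 stress genes 4 were higher and 6 lower in each case. HSPB1 rose by 1.21 and 1.16 on the log2 scale after GSK591 and MS023 (adjusted p = 1.01e-11 and 1.55e-11). HMOX1 (-0.72, adjusted p = 0.00234 and -1.18, adjusted p = 3.04e-08), GCLC (-0.85, adjusted p = 0.000236 and -1.1, adjusted p = 2.63e-07) and GCLM (-1.67, adjusted p = 7.95e-05 and -1.46, adjusted p = 3.31e-05) fell. The 1 neighbour called was DPPA2P4, a processed pseudogene just past MT1X, at 3 h after MS023 (log2 2.4, adjusted p = 0.0355, 0.809 against 0.142 CPM). Of 20 glucocorticoid-induced genes 17 were higher after GSK591 and 18 after MS023.

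Whether the 3 h response itself differed after an inhibitor was tested as the difference between the 2 log2 fold changes. This difference includes the untreated libraries of the contrast that selected the members, so it is not independent of that selection. For GSK591, AC026461.3 was the 1 of 5 members called, among 0.223% of all genes. The response of AC026461.3 to Dex was larger by 1.76 on the log2 scale after GSK591 (SE 0.365, 95% interval 1.03 to 2.5, adjusted p = 0.0149 by the edgeR test), from 2.32 in cells without inhibitor to 4.09. Its level with Dex was 21.9 and 18.7 CPM without inhibitor and 18.5 and 24.1 CPM after GSK591, values that overlapped, and its level before Dex was 3.23 and 4.84 against 1.63 and 0.804 CPM, values that did not. The response of MT2A differed by 0.25 (SE 0.217, interval -0.18 to 0.69, adjusted p = 0.813) and that of MT1X by 0.23 (adjusted p = 0.828).

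The call of AC026461.3 in this difference was lost without untreated replicate 2 (1.43, adjusted p = 0.208 by the edgeR test), Dex 3 h replicate 2 (1.65, 0.0893), GSK591 replicate 2 (1.37, 0.214) or GSK591 with Dex replicate 2 (1.56, 0.118). It was also lost with scaling by total counts alone (1.8, adjusted p = 1), under which 0 of all genes were called, and it was kept with DESeq2 (1.77, adjusted p = 0.0243). For MS023, 0 of 5 members were called by edgeR or by DESeq2, where 0.223% of all genes were. MT2A, AC026461.3 and MT1X had an unadjusted p under 0.05 in the edgeR test, with a larger response after MS023. The difference of MT1A rests on its empty untreated libraries, so it is given as counts only. MT1A had 0 and 0 counts against 7 and 5 with Dex without inhibitor, and 5 and 3 against 13 and 3 after MS023. MT2A differed by 0.43 (SE 0.202, adjusted p = 0.518), AC026461.3 by 0.61 (SE 0.281, adjusted p = 0.501) and MT1X by 0.52 (SE 0.196, adjusted p = 0.346). At 15 min, in differences that include the contrast used to select the members, the values were 1.17 for AC026461.3 after GSK591 and -0.17 after MS023, with no test.

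The counts of AC026461.3 can be set against those of MT2A in the same library, which removes library scaling. AC026461.3 made up 19.7% and 30.8% of the 2 genes' summed counts in untreated cells (95% Wilson intervals 14.1 to 26.9 and 24.1 to 38.4, counting error only). After 7 days of GSK591 it made up 14.7% (8.99 to 23.2) and 8.7% (4.05 to 17.7). After 2 days of GSK591 it was 28.1% and 32.2%, and after 4 days 21.7% in both libraries, so that both libraries at 7 days lay under all other libraries. MS023 gave 31% and 26.2% after 2 days, then 23.1% and 24.4% after 4, and 23% and 29.9% after 7. In the 14 libraries without Dex the share ran from 8.7% to 32.2%, and in the 16 with Dex from 30.4% to 42.3%. It was 33.8% and 35.3% at 3 h of Dex, 34.1% and 42.3% at 3 h after GSK591, and 38.7% and 39% at 3 h after MS023. Groups of 2 libraries cannot reach a p below 0.333 in an exact two-sided permutation test, and the share is given as a description.

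**Figure D4:**
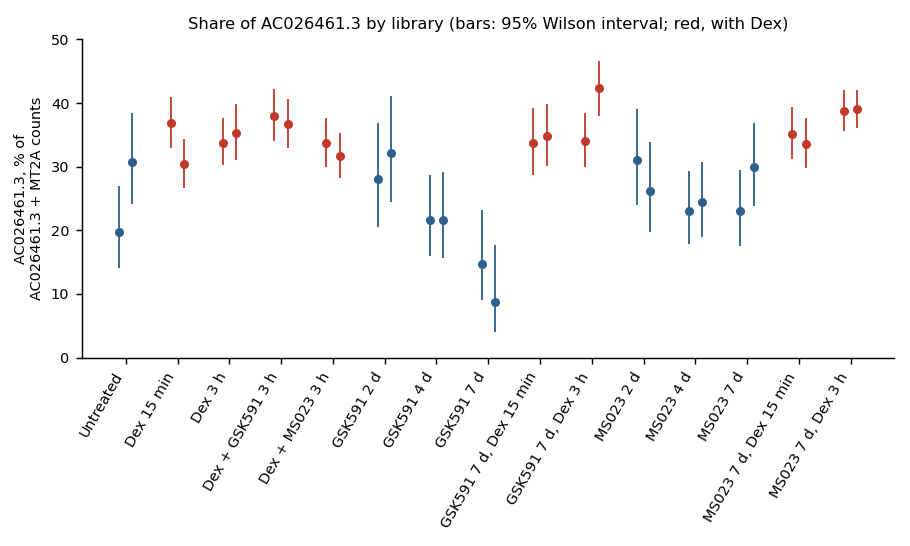
Share of AC026461.3 in the summed counts of AC026461.3 and MT2A, in percent, for each library with its 95% Wilson interval; red points had Dex. The 2 libraries of 7 days of GSK591, at 14.7% and 8.7%, are the lowest, and libraries with Dex lie between 30.4% and 42.3%.

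Over the 15 group means of log2 CPM, MT2A followed AC026461.3 (Pearson r = 0.965) and MT1X (0.943) more closely than MT1F (0.363), and AC026461.3 correlated with MT1X at 0.922 and with MT1F at 0.388. These are descriptions over groups that share libraries and that split by Dex, so no p is given. Members and genes overlapping their exons were left out of the ranking of other genes. Of 11114 such genes whose mean level reached 5 CPM, the 5 most like MT2A were PER1 (r = 0.977), ANGPTL4 (0.973), HPGD (0.962), FGD4 (0.961) and TSC22D3 (0.957). The non-member genes most like AC026461.3 were PER1 (0.955), TSC22D3 (0.951), ERRFI1 (0.946), NFKBIA (0.934) and ZFP36 (0.93). PER1 is a clock gene, ANGPTL4 encodes a secreted lipase inhibitor, and TSC22D3 encodes the glucocorticoid-induced leucine zipper. At 3 h of Dex, TSC22D3 rose by 2.89 (adjusted p = 2.08e-22 by the edgeR test), ZFP36, an mRNA decay factor, by 2 (adjusted p = 3.57e-19) and ANGPTL4 by 1.72 (adjusted p = 5.02e-16) on the log2 scale.

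The authors' deposited tables of comparisons, each against untreated cells, list MT2A, MT1X, MT1F, MT1A and MT1E and hold no row for AC026461.3. In the authors' deposited table MT2A was at a log2 fold change of 2.33 at 3 h of Dex (adjusted p = 2.28e-19), and MT1X at 1.51 (adjusted p = 5.58e-16). For 7 days of GSK591 the authors' deposited table has MT2A at -0.35 (adjusted p = 0.225) and MT1X at -0.08 (adjusted p = 0.767). For 7 days of MS023 the authors' deposited table has MT1X at -0.69 (adjusted p = 0.0016), where the counts gave -0.2 (adjusted p = 0.425 by the edgeR test). MT1F, called from the counts at 4 days of MS023 at 1.81, stood at 0.05 with no adjusted p in the authors' deposited table. There the 0.05 and its SE of 0.316 do not yield the p listed beside them. The authors' fold changes may therefore be shrunk toward 0, and 0.05 is not directly comparable with 1.81. The mean expression in the authors' deposited tables was 104 for MT2A and 5.12 for MT1F, against mean deposited counts of 248 and 32.6, so those tables rest on other counts than the deposited ones.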

How the data were processed

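The 30 libraries were analysed from the authors' deposited table of raw read counts per gene, made with featureCounts 2.0.1 (Subread) on hg38, per the submitters' processing notes. The strand and multi-mapping settings are not given in the sources used here. The authors' deposited tables of comparisons hold log2 fold changes, p-values and a mean expression (a signal averaged over samples by the authors, per the file headers), and those values are quoted only where named. Every column matched a sample. Depth was 8441211 to 13069598 counts per library, and low members are limited by counting error.

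Genes were filtered with filterByExpr (minimum count 10, minimum total 15), scaled by TMM and fitted in 1 edgeR 4.0.16 quasi-likelihood model of 15 groups (R 4.3.3, limma 3.58.1), leaving 15 residual degrees of freedom, without covariates. P-values were adjusted by Benjamini-Hochberg over 22919 genes, with a threshold of 0.05. The fit was tested on simulated data. Alternatives were DESeq2 1.42.0, DESeq2 size factors, total counts, no filter, the compared groups alone, a replicate block, no mitochondrial or ribosomal RNA genes, and leaving out each library. CPM values use TMM-scaled library sizes. Motifs were searched on both strands.

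The members and gene lists were chosen with earlier results of these data known. Fold change, SE and adjusted p are given for MT2A, AC026461.3 and each called member; from lists and neighbours, at most 3 called genes per direction with the smallest p are named. Likeness ranks used group means of log2(CPM + 0.1). One coding sequence is not reported here.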

Additional observations from a re-analysis of the deposited data

Results flagged for a closer look

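The response of AC026461.3 to 3 h of Dex differed between cells without inhibitor and cells after 7 days of GSK591, by 1.76 on the log2 scale (SE 0.365, adjusted p = 0.0149, edgeR quasi-likelihood test of the interaction with Benjamini-Hochberg adjustment). All 4 libraries with Dex had 153 to 210 counts, and the level before Dex was 29 and 48 counts in untreated cells and 14 and 6 counts after GSK591. The untreated libraries are those of the contrast that selected the members, so the test is not independent of that selection. The call depended on single libraries: it was lost in 4 of 8 fits that left out 1 library, replicate 2 of each of the 4 groups, with values from 1.37 to 1.65.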

How the results depend on the processing

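Calls of MT1A against untreated cells enter the counts below only to compare settings, since it passed the filter through treated libraries only. The counts of called members, MT1A included, moved by more than 1.5 times as follows, and the cause was not tested. With DESeq2 they became 3 for Dex 3 h against untreated (5 with edgeR), 0 for GSK591 at 2 days (1), and 1, 1 and 0 for MS023 at 2, 4 and 7 days (2, 2 and 1); of the calls missing there, MT1F for GSK591 at 2 days and every MT1A call have no adjusted p in DESeq2. With scaling by total counts alone they became 2 for GSK591 at 4 days (1), 4 and 5 for MS023 at 4 and 7 days (2 and 1), 4 for GSK591 against MS023 at 7 days (1) and 0 for the interaction of GSK591 with Dex (1). Without the filter GSK591 at 2 days gave 0, and fits of the compared groups alone gave 1 and 1 for MS023 at 2 and 4 days.

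Leaving out 1 library gave 3 to 4 called members for Dex 3 h against untreated, 0 to 0 for GSK591 at 2 days, 0 to 2, 1 to 1 and 0 to 0 for MS023 at 2, 4 and 7 days, 0 to 1 for GSK591 against MS023 at 7 days and 0 to 1 for the GSK591 interaction. A lone library left in a group is assumed to vary like the other groups.

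Signs turned only for values that were not called in the fit reported. With total counts alone MT2A became 0.04 for GSK591 added to Dex, 0.04 and 0.37 for GSK591 at 2 and 4 days, 0.38, 0.64 and 0.76 for MS023 at 2, 4 and 7 days, and -0.34 and -0.27 for GSK591 against MS023 at 2 and 4 days, and AC026461.3 became 0.06 for GSK591 at 4 days, 0.61, 0.5 and 0.83 for MS023, and -0.23 for GSK591 against MS023 at 2 days. That scaling moved the median of all genes to 0.12, 0.29, 0.42, 0.68, 0.74, 1.02, -0.39 and -0.33 in these comparisons. Leaving out 1 library gave MT2A ranges of -0.24 to 0.08 (GSK591 added to Dex), -0.18 to 0.08 (GSK591 4 days), -0.24 to 0.03 (MS023 4 days) and -0.08 to 0.18 (GSK591 against MS023, 2 days). For AC026461.3 the ranges were -0.02 to 0.21 and -0.07 to 0.15 (GSK591 and MS023 added to Dex), -0.16 to 0.43 (GSK591 2 days), and -0.31 to 0.27, -0.48 to 0.1 and -0.43 to 0.15 (MS023 at 2, 4 and 7 days).

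Same-numbered libraries of different groups showed no pairing common to all groups (median r of their deviations 0.021). In single pairs of groups r ran from -0.45 to 0.485, over 0.1 in 21 of 105, so some groups may share such differences. With the replicate block no count of called members moved by more than 1.5 times, and the AC026461.3 interaction with GSK591 was 1.76 (adjusted p = 0.0129, edgeR). The counts over all genes also moved by more than 1.5 times. DESeq2 called 1449 for Dex 3 h against untreated (2410 with edgeR), 70 for MS023 added to Dex (45), 633, 2397 and 1755 for GSK591 at 2, 4 and 7 days (1292, 3941 and 3026), 1293, 1793 and 1696 for MS023 (2381, 3247 and 3127), 304, 669 and 1098 for GSK591 against MS023 (617, 1382 and 2149), 255 and 1349 for Dex 15 min and 3 h after GSK591 (480 and 2258), 257 and 1472 after MS023 (474 and 2543), and 20 for the MS023 interaction (51). Total counts alone gave 1259 for Dex 3 h, 122 for MS023 added to Dex, 1135 for GSK591 at 7 days, 9228, 11285 and 16196 for MS023, 1108 and 16029 for GSK591 against MS023 at 2 and 7 days, 72 and 1363 for Dex after GSK591, 71 and 1007 after MS023, and 0 and 0 for the interactions. Without the filter, GSK591 and MS023 added to Dex gave 2 (0) and 508, and the GSK591 and MS023 interactions 109 (51) and 125. The replicate block gave 114 for MS023 added to Dex and 81 for the MS023 interaction. Fits of the compared groups alone gave 16 and 0 for GSK591 and MS023 added to Dex, 2277 for GSK591 and 3952 for MS023 at 2 days, 1106 and 2402 for GSK591 against MS023 at 2 and 4 days, 170 and 715 for Dex 15 min after GSK591 and MS023, and 146 for the MS023 interaction.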
